A study of Mus musculus with 225 samples.

Results

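The genes described here are 9 components of the Notch pathway, the ligands *Jag1* and *Dll1*, the receptors *Notch1*, *Notch2* and *Notch3*, the nuclear effector *Rbpj* and the targets *Hes1*, *Hey1* and *Heyl*, taken by name from a table of read counts that lists 23165 genes. All 9 were found in the count table, and 7 of them were also among the 10948 genes of the normalized table, which does not hold *Dll1* and *Heyl*. Notch signalling acts between touching cells. A ligand of the Delta or Jagged class on one cell binds a Notch receptor on its neighbour, the receptor is cut by ADAM proteases and by gamma-secretase, and its intracellular part enters the nucleus, where it binds RBPJ and Mastermind co-activators and switches on genes of the Hes and Hey families, which encode transcriptional repressors. In the limb bud the pathway is known for roles in the timing of cartilage differentiation and in the vessels and skin, and *Jag1* and *Hes1* are known to be transcribed in the distal mesenchyme.

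The measurements were single-cell transcriptomes of mouse forelimb cells at embryonic day 12.5, dissected into the autopod (the future hand) and the zeugopod (the future forearm). Cells came from *Hoxd11::GFP* heterozygous embryos of a mixed C57Bl6CBAF1 background, in which a tau-GFP sequence sits in frame in the coding sequence of *Hoxd11*, so that every cell of both tissues carried 1 interrupted *Hoxd11* allele, and the brightest GFP cells were sorted and captured on a microfluidic chip. The embryos were pooled and the labels tie no cell to an embryo, so each tissue was taken as 1 sample, no test between tissues was possible, and all intervals and standard deviations below are over cells. The cells sorted are those with high *Hoxd11* reporter signal and not the whole limb.

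The cells of the normalized table, called retained cells, were 76 of the 96 captured autopod cells and all but 6 of the captured zeugopod cells. Of the retained autopod cells, 59 had been sequenced in run NXT0072 and 17 in run NXT0143, and of the zeugopod cells 58 in run NXT0142 and 65 in run NXT0143. Tissue and run can thus be separated within NXT0143 alone. Zeugopod shares below are of these 58 and 65 cells together unless a run is named. Reads on genes ranged from 186271 to 9437447 per cell, with 1801 to 6162 genes detected, and the median number of genes was 3684 in autopod and 3995 in zeugopod cells. *Hoxd13*, the digit gene, had at least 5 reads in 65 of 76 autopod cells and in 1 zeugopod cell, and *Shox2*, a gene of the proximal limb segments, in 0 of 76 autopod and 73 zeugopod cells. The autopod cells of NXT0143 stood apart from those of NXT0072. *Hoxd13* was on, by a rule given with the *Hoxd* combinations, in 8 of 17 against 53 of 59 cells, and the mean log2(CPM + 1) (CPM, reads scaled to 1000000 reads on genes in each cell) of 10 genes that respond to tissue dissociation, among them *Fos* and *Egr1*, was 6.72 against 4.45, beside 3.42 and 4.03 in the zeugopod groups of NXT0142 and NXT0143. Values are therefore given by run as well as by tissue. Limb mesenchyme genes were present, with *Prrx1* in 61.8% of autopod and 69.9% of zeugopod cells, *Pdgfra* in 51.3% and 84.6%, *Twist2* in 6.58% and 13.8%, *Twist1* in 56.6% and 17.1% and *Prrx2* in 35.5% and 11.4%. No cell reached the number of markers required for endothelium, muscle, epithelium, mural cells or macrophages. Blood could not be checked because 1 of its 4 listed markers is in the count table. Of the endothelial markers, *Cdh5* and *Emcn* were detected in 0 cells, where a count of 0 over all retained cells allows a share of up to 1.51%. *Kdr* was detected in 1 autopod and 3 zeugopod cells and *Pecam1* in 0 and 1. Single markers of the other lists were also detected in autopod and zeugopod cells. They included *Pax7* in 1 and 15 cells, *Epcam* in 2 and 9, *Csf1r* in 3 and 17 and *Pdgfrb* in 24 and 44. A cell that lacks the required number of markers may still belong to such a lineage.

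Detection of a gene in a cell here means 5 reads or more. Levels are normalized values, in which the deposited table gives reads scaled by a spike-in size factor, plus 1, per kilobase of gene model, so a cell with 0 reads has a small value, the floor, that depends on the length of the gene. The level of each member in each group of cells is plotted below.

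**Figure D1:**
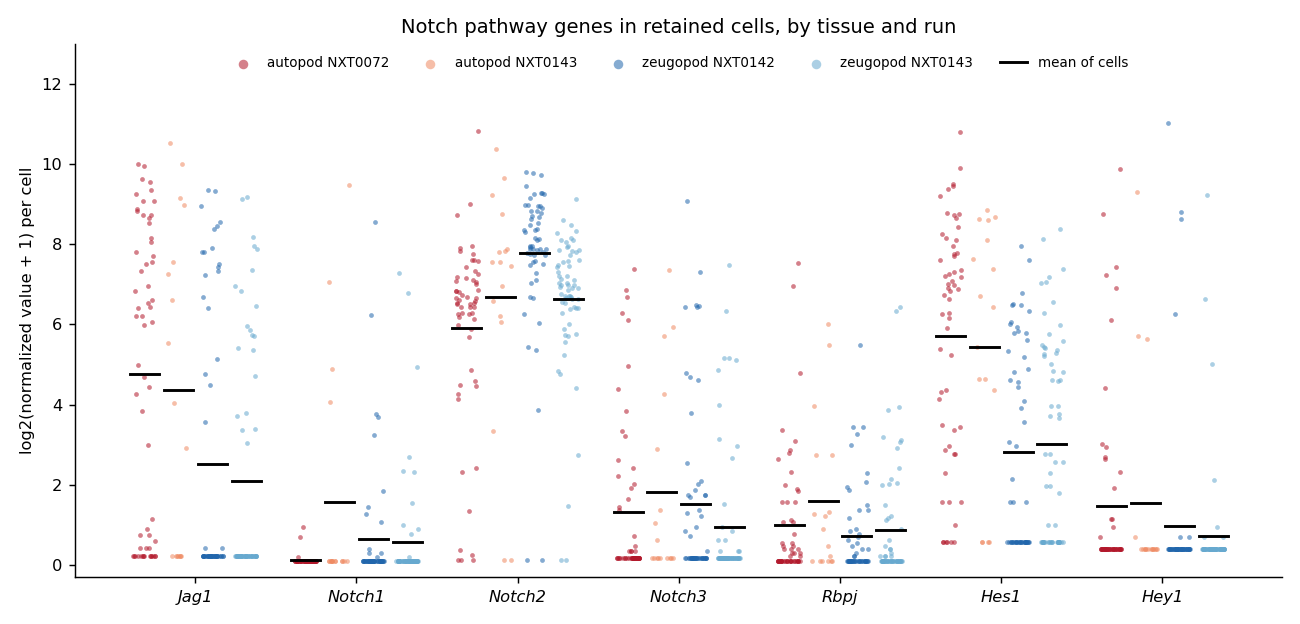
The 7 members in the normalized table are shown as log2(normalized value + 1), 1 point per retained cell. Points are grouped by tissue and run, with a bar at the mean of the cells. The means of *Jag1* and *Hes1* lie higher in both autopod groups than in both zeugopod groups. The *Notch2* means lie between 5.92 and 7.78 in all 4 groups, and those of *Notch1*, *Notch3*, *Rbpj* and *Hey1* between 0.13 and 1.81. The medians, which are not drawn, lie at the floor for *Notch1*, *Notch3* and *Hey1* in all 4 groups, and for *Rbpj* in both zeugopod groups.

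Among the ligands, transcripts of *Jag1*, which encodes the membrane ligand Jagged 1, were frequent and transcripts of *Dll1*, which encodes Delta-like 1, were almost absent. *Jag1* (ENSMUSG00000027276, chr2:137081456-137116644, minus strand, GRCm38) was detected in 49 of 76 autopod cells, 64.5% (exact binomial 95% interval 52.7 to 75.1), and in 40 zeugopod cells, 32.5% (24.4 to 41.6). By run the shares were 66.1% and 58.8% for the autopod cells of NXT0072 and NXT0143, and 32.8% and 32.3% for the zeugopod cells of NXT0142 and NXT0143, so both autopod groups lay above both zeugopod groups. These intervals, like all those given here, cover counting error over cells only, and reads were not counted with molecular identifiers.

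The normalized value of *Jag1* ran from the floor of 0.171 to 1483 in autopod cells, with a median of 54.1, and from the floor to 652 in zeugopod cells, where the median was the floor itself. The medians were 65.4 and 15.4 in the autopod cells of NXT0072 and NXT0143 and the floor in both zeugopod groups. The ranges of the tissues overlapped over most of their length. Among cells with *Jag1* detected the medians were closer, at 181 in autopod and 118.5 in zeugopod cells. When all cells were thinned to 500000 reads, which left out 4 cells of each tissue, and 1 read was enough, *Jag1* was found in 72.2% and 33.6% of cells.

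*Dll1* (ENSMUSG00000014773, chr17:15367354-15376872, minus strand) had 8 reads in all retained cells together, spread over 4 autopod and 3 zeugopod cells with 1 or 2 reads each, and reached 5 reads in 0 cells. A count of 0 allows a share of up to 3.95% of autopod and 2.44% of zeugopod cells. *Jag1* was thus the single ligand member to reach 5 reads in any retained cell.

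Of the receptors, *Notch2* was found in nearly every cell of both tissues, *Notch3* in under 1 in 3 cells of each tissue and *Notch1* in fewer. *Notch2* (ENSMUSG00000027878, chr3:98013527-98150361, plus strand) was detected in 70 of 76 autopod cells, 92.1% (83.6 to 97.05), and in all but 4 zeugopod cells, 96.7% (91.9 to 99.1), with shares by run between 88.2% and 96.9%. Its normalized value had a median of 98.5 and a maximum of 1833 in autopod cells, and a median of 188 and a maximum of 897 in zeugopod cells. By run the medians were 92.5 and 187 in the autopod cells of NXT0072 and NXT0143 and 262 and 121.6 in the zeugopod cells of NXT0142 and NXT0143, so the order of the tissues was not the same in the separate runs. A single autopod cell held 45.1% of all *Notch2* reads of that tissue.

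*Notch3* (ENSMUSG00000038146, chr17:32120820-32166852, minus strand), a receptor best known from vascular smooth muscle, was detected in 23 of 76 autopod cells, 30.3%, and 38 zeugopod cells, 30.9%, with shares by run of 28.8% and 35.3% in autopod and 41.4% and 21.5% in zeugopod cells. Its values ran from the floor of 0.132 to 166 and 539. The spread between runs of the zeugopod was larger than the difference between tissues.

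*Notch1* (ENSMUSG00000026923, chr2:26457903-26516663, minus strand), the receptor of endothelium and many progenitor cells, was detected in 6 of 76 autopod cells, 7.89%, and 18 zeugopod cells, 14.6%. In the autopod it differed by run, with 2 of 59 cells in NXT0072, 3.39%, where the highest normalized value was 0.932, and 4 of 17 cells in NXT0143, 23.5%, where it reached 712. The zeugopod shares were 15.5% and 13.8%. No cell had an endothelial profile, and the sum of 4 endothelial markers was at most 1.72 CPM in any autopod cell and 19.2 in any zeugopod cell.

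Within cells, *Notch2* was the receptor with the highest normalized value in 65 of the 72 autopod cells and in all but 4 of the zeugopod cells with any receptor detected. It made up 87.5% of the summed normalized receptor values in autopod and 92.2% in zeugopod cells, and between 80.1% and 92.7% in each group of tissue and run. *Notch2* was the one receptor detected in 45 of 76 autopod and 69 zeugopod cells, 2 receptors were detected together in 23 and 44 cells, all 3 in 2 and 6 cells, and none in 4 cells of each tissue.

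*Rbpj* (ENSMUSG00000039191, chr5:53466152-53657362, plus strand), the DNA-binding partner of all Notch receptors, was detected in 26 of 76 autopod cells, 34.2%, and 38 zeugopod cells, 30.9%, at low levels, with a median of 4.62 and 3.01 among the cells with it. Its values ran up to 183 and 86.1, and 1 autopod cell held 81.5% of the *Rbpj* reads of its tissue. The share depended on the criterion, since 99 retained cells had at least 1 *Rbpj* read and 64 had at least 5. The count table also lists the processed pseudogenes *Rbpj-ps1* and *Rbpj-ps3*, so reads may have been divided or lost between near-identical copies and the *Rbpj* values are uncertain. The kit does not mark strand, and *Notch1*, *Notch2*, *Notch3*, *Rbpj* and *Dll1* overlap other annotated genes. The overlapping genes held 892 reads at *Notch1*, in *0610009E02Rik* on the other strand, and 1442 at *Notch2*, in *Gm42820* on the same strand, against 12857 and 487312 reads of the receptors themselves.

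Of the targets, *Hes1* was frequent and differed between tissues, *Hey1* was rare and *Heyl* was confined to 1 cell at 5 reads. *Hes1* (ENSMUSG00000022528, chr16:30064384-30067796, plus strand), a repressor of differentiation genes and a common Notch target, was detected in 63 of 76 autopod cells, 82.9% (72.5 to 90.6), and in 64 zeugopod cells, 52.03% (42.8 to 61.1). By run the shares were 84.7% and 76.5% in autopod and 46.6% and 56.9% in zeugopod cells. Its normalized value had a median of 103.9 and a maximum of 1775 in autopod cells, and a median of 2.93 and a maximum of 335 in zeugopod cells, with medians by run of 112.5 and 86.1 against 1.96 and 4.89. Among the cells that had it *Hes1* also stood higher in the autopod, with medians of 134 in autopod and 36.9 in zeugopod cells. After thinning it was found in 84.7% and 52.1% of cells.

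*Hey1* (ENSMUSG00000040289, chr3:8663359-8667256, minus strand), a target of the Hairy-related family, was detected in 16 of 76 autopod cells, 21.1% (12.5 to 31.9), and 8 zeugopod cells, 6.50% (2.85 to 12.4), with shares by run of 22.03% and 17.6% in autopod and 6.90% and 6.15% in zeugopod cells. The few zeugopod cells with *Hey1* had much of it, with a median of 247 and a maximum of 2093, beside a median of 50.2 and a maximum of 933 among the autopod cells with it. *Heyl* (ENSMUSG00000032744, chr4:123233556-123249875, plus strand) had 2552 reads in all cells together, and 2549 of them came from 1 zeugopod cell of NXT0142, at 867 CPM. That cell had 3 or more chondrogenic markers and no mural or endothelial profile. The detection shares of all members are plotted by tissue and run.

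**Figure D2:**
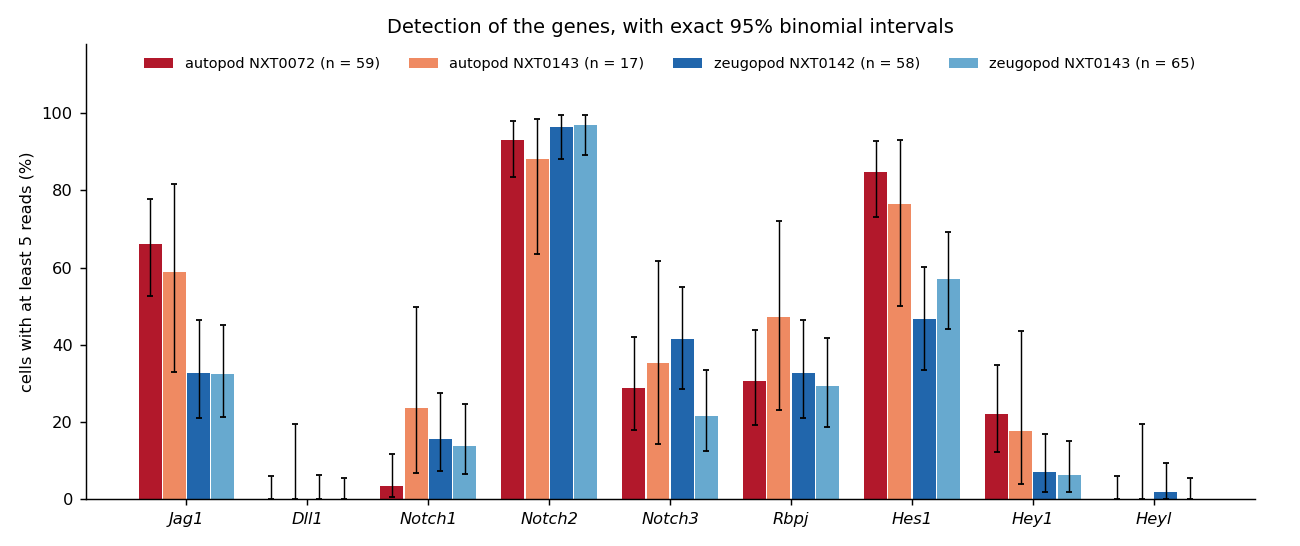
Share of retained cells (%) with at least 5 reads of each of the 9 members in the 4 groups of tissue and run, with exact binomial 95% intervals over cells. *Jag1*, *Hes1* and *Hey1* lie higher in both autopod groups than in both zeugopod groups, *Notch2* lies at 88.2% or more in every group, and *Dll1* lies at 0.

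The sequence before an annotated start is shown for the most frequent ligand and receptor and for the effector, because the pathway can act on its own components. Of the 9 members, 6 matched the promoter table of RefSeq on GRCm38, with 8 promoters in all, each covering 250 bases upstream, and *Hes1*, *Hey1* and *Heyl* have no entry. Both strands were searched for TGGGAA, the core letters bound by RBPJ (TTCCCA on the other strand), CACGCG, bound by Hes and Hey proteins (CGCGTG on the other strand), and CAATAAA, bound by HOX13 proteins. Over all 32851 promoters of the table, 21.6%, 7.62% and 4.2% held these letters. The *Jag1* promoter held CACGCG in 2 places, the *Notch2* promoter in 1 and a *Dll1* promoter in 1, the *Rbpj* promoters held TGGGAA, and CAATAAA was in none of the 8. The stretches of these windows that lie outside annotated exons follow, 5′ to 3′ on the strand of the gene, with matches to TGGGAA or CACGCG on either strand in capitals. The *Rbpj* stretch lies inside the gene coordinates given above, before an internal start. Such a match is a description of the letters and not a bound site.
Jag1, chr2:137116645-137116770, minus strand: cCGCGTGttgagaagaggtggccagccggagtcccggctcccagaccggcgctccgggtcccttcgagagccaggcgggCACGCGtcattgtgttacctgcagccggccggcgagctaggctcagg
Notch2, chr3:98013288-98013526, plus strand: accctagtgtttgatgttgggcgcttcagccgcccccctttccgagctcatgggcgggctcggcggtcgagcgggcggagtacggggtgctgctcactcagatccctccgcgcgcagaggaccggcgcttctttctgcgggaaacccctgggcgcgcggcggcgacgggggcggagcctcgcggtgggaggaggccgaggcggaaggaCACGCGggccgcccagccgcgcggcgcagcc
Rbpj, chr5:53590096-53590213, plus strand: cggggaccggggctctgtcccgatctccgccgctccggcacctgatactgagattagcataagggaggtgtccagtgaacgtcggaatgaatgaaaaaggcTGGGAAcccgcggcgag

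The normalized values are per kilobase, so levels can be set side by side between genes, except where many cells lie at the floor. As log2(normalized value + 1) the floor was 0.57 for *Hes1*, 0.39 for *Hey1*, 0.23 for *Jag1*, 0.18 for *Notch3* and 0.11 for *Rbpj* and *Notch1*. On the scale of the mean log2(normalized value + 1), the level of the members in autopod cells was 6.09 for *Notch2*, 5.66 for *Hes1* and 4.67 for *Jag1*, followed by 1.48 for *Hey1*, 1.43 for *Notch3*, 1.12 for *Rbpj* and 0.46 for *Notch1*. In zeugopod cells it was 7.17 for *Notch2*, 2.92 for *Hes1* and 2.30 for *Jag1*, followed by 1.21 for *Notch3*, 0.84 for *Hey1*, 0.80 for *Rbpj* and 0.60 for *Notch1*. Neighbours in these orders differed by less than the larger of their standard deviations over cells, with the exception of *Notch2* and *Hes1* in the zeugopod, whose standard deviations were 1.87 and 2.50. The order of the low members also depends on the floor. In the autopod *Hey1* stood above *Notch3* but was detected in fewer cells, at 21.1% against 30.3%.

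The tissues were compared by the difference of these means, autopod minus zeugopod, over the 8986 genes detected in 10% or more of the cells of a tissue, and a difference of at least 1, which is 2-fold, was called. Of the 7 members in the normalized table, *Jag1* and *Hes1* were called higher in the autopod and *Notch2* was called lower, while the other 4 stayed below the threshold. Over all tested genes, 3.45% were called higher and 7.62% lower, and with the same direction also required within NXT0143 and between NXT0072 and NXT0142 the shares were 3% and 5.23%. In the separate comparisons the shares called higher and lower were 12.9% and 6.29% within NXT0143, 3.98% and 15% between NXT0072 and NXT0142, and 3.09% and 11.6% on CPM. The median difference was 0.32 over the 7 members and -0.07 over all tested genes.

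*Hes1* differed by 2.73 on the log2 scale (5.66 against 2.92), by 2.42 within NXT0143 and by 2.90 between NXT0072 autopod and NXT0142 zeugopod cells, and it stood at position 11 from the top of the 8986 genes. *Jag1* differed by 2.37 (4.67 against 2.30), by 2.27 within NXT0143 and by 2.23 between the other runs, at position 24. The standard deviations over cells were 2.97 and 2.50 for *Hes1* and 3.75 and 3.17 for *Jag1*, so the difference of *Jag1* was smaller than the spread between single cells of either tissue and that of *Hes1* lay between the spreads of the tissues. Cells of 1 pooled sample are not replicates, and the differences carry no test.

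*Notch2* was lower in the autopod by 1.09 on the log2 scale over all cells, at -1.87 between NXT0072 and NXT0142 but 0.05 within NXT0143, so the call was not held in the run that contained both tissues. Between NXT0072 and NXT0142 the median gene stood at -0.20, relative to which *Notch2* stood at -1.67. *Notch2* values also followed the number of genes detected in a cell, with rank correlations of 0.45 over autopod and 0.60 over zeugopod cells. The median number of genes was lower in autopod cells over all runs, at 3684 against 3995. Within NXT0143 it was higher, at 3965 against 3745. With every cell thinned to 500000 reads the *Notch2* difference was -1.33 on log2(CPM + 1), beside -1.42 at full depth on that scale. Thinning equalizes reads and not genes detected, and the part of either in the difference was not tested.

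The differences of the other members were 0.64 for *Hey1*, 0.32 for *Rbpj*, 0.21 for *Notch3* and -0.14 for *Notch1*. *Hey1* and *Rbpj* were above 0 in both run comparisons, at 0.82 and 0.50 for *Hey1* and at 0.72 and 0.26 for *Rbpj*. *Notch3* and *Notch1* changed sign between the run comparisons, from 0.88 and 1.02 within NXT0143 to -0.21 and -0.51 between the other runs. On log2(CPM + 1), which uses neither the spike-ins nor gene length and on which the median gene stood at -0.18, the differences were 2.75 for *Hes1*, 2.65 for *Jag1* and -1.42 for *Notch2*.

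**Figure D3:**
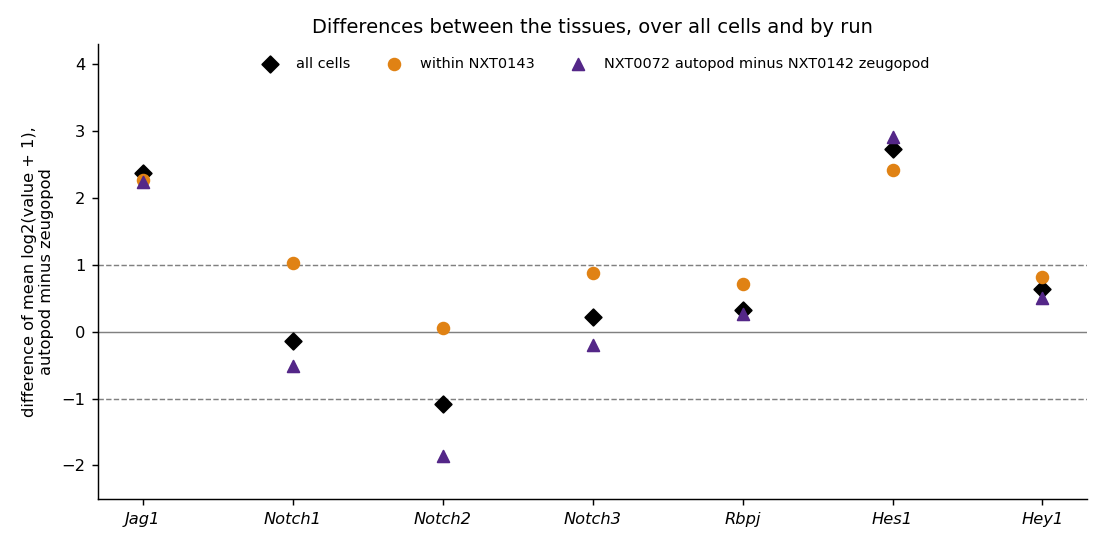
Difference of mean log2(normalized value + 1), autopod minus zeugopod, for the 7 members over all retained cells, within run NXT0143 and between NXT0072 autopod and NXT0142 zeugopod cells, with lines at the 2-fold threshold. *Hes1* and *Jag1* lie between 2.23 and 2.90 in all 3 comparisons, and *Notch2* lies between -1.87 and 0.05.

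Of the 10 genes of the dissociation response, 9 were higher in autopod cells, with differences between 0.44 for *Atf3* and 2.64 for *Fos*, and *Jun* was lower at -0.78. Within NXT0143 all 10 were higher in autopod cells, from 0.96 for *Jun* to 4.04 for *Ier2*, with *Fos* at 3.78. Between NXT0072 and NXT0142 *Junb* stood at -0.0063 and *Jun* at -1.21. Over all cells the mean log2(CPM + 1) of that list was 4.95 in autopod and 3.74 in zeugopod cells. All 10 listed genes were detected in both tissues, and their summed level ran from 0.138 to 22436 CPM in autopod and from 0 to 26526 CPM in zeugopod cells. Within a tissue, the rank correlation of a member with that mean was -0.03 and 0.16 for *Hes1*, 0.02 and 0.10 for *Jag1*, 0.16 and 0.26 for *Hey1* and 0.35 and 0.07 for *Rbpj*, for autopod and zeugopod cells in turn. These are descriptions over cells that share library, depth and handling, and the part of the dissociation response in the differences was not tested.

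Ligand, receptor and target transcripts were found together in the same cell in 40 of 76 autopod cells, 52.6% (40.8 to 64.2), and 22 zeugopod cells, 17.9% (11.6 to 25.8). By run the shares were 52.5% and 52.9% in the autopod and 17.2% and 18.5% in the zeugopod, and after thinning 61.1% and 16.8%. With *Rbpj* also required they were 17.1% and 5.69%. Receptor and target without a ligand were found in 23 autopod cells, 30.3%, and 43 zeugopod cells, 34.96%. The zeugopod held more cells with a receptor alone, 36 cells or 29.3% against 2 of 76 or 2.63%. Ligand and receptor without a target were found in 9.21% and 14.6% of cells. Taken singly, *Jag1* and *Hes1* already differed between the tissues, at 64.5% against 32.5% and 82.9% against 52.03%. The joint share expected from these separate shares was not computed, so the tissue contrast is not a measure of co-expression beyond them. A cell counted as holding a ligand and a receptor need not signal to itself, since the pathway acts between neighbours and dissociation removes them.

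**Figure D4:**
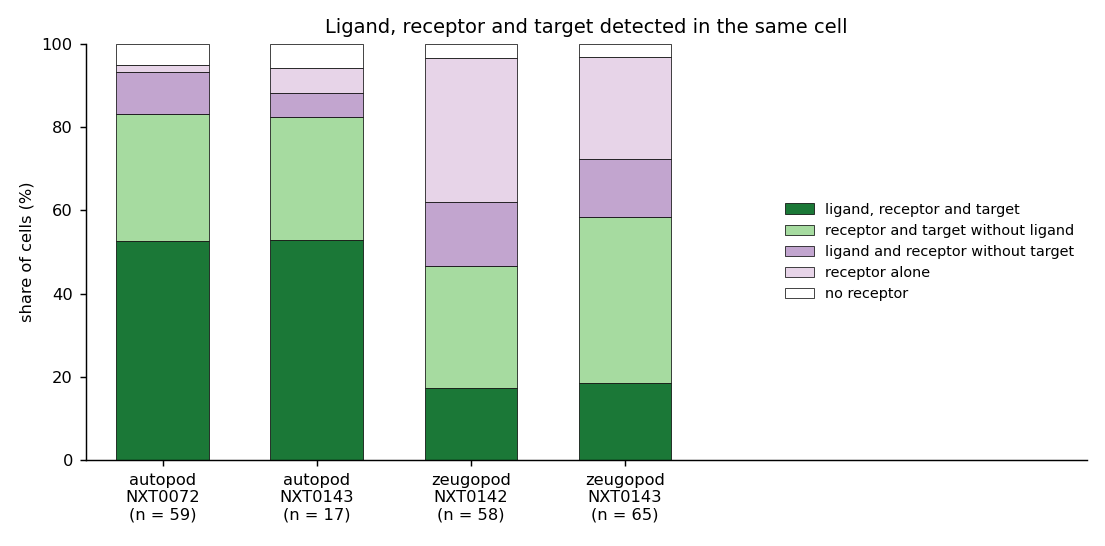
Share of retained cells (%) in which a ligand (*Jag1* or *Dll1*), a receptor (*Notch1*, *Notch2* or *Notch3*) and a target (*Hes1*, *Hey1* or *Heyl*) were each detected with at least 5 reads, alone or together, by tissue and run. All 3 classes together make up 52.5% and 52.9% of the autopod groups and 17.2% and 18.5% of the zeugopod groups.

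The ligand was almost always found with a receptor. All 40 zeugopod cells and 46 of the 49 autopod cells with *Jag1* also had *Notch2*, shares that lie close to the overall shares of *Notch2* itself. *Hes1* was about as frequent in cells with *Jag1* as in cells without it, at 40 of 49 or 81.6% against 23 of 27 or 85.2% in the autopod and at 22 of 40 or 55% against 42 of 83 or 50.6% in the zeugopod. The intervals of these pairs overlapped, at 67.98 to 91.2 against 66.3 to 95.8 and at 38.5 to 70.7 against 39.4 to 61.8.

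Across cells the rank correlation of *Jag1* with *Hes1* was 0.01 over autopod and 0.03 over zeugopod cells. That of *Jag1* with *Notch2* was 0.27 and 0.08, and the autopod value was 0.17 when the number of genes detected was held constant. That of *Notch2* with *Hes1* was 0.07 and 0.02. Over the cells with both genes detected, a restriction chosen after the data were seen, the value for *Jag1* and *Hes1* was -0.08 in the autopod and 0.29 over 22 cells in the zeugopod.

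*Hey1* was found in 13 of 49 autopod cells with *Jag1*, 26.5% (14.9 to 41.1), and in 3 of 27 without, 11.1% (2.35 to 29.2), with overlapping intervals and with more genes detected in the cells with *Jag1* (median 3716 against 3363), and after thinning the shares were 25% and 15%. In the zeugopod the shares were 5% and 7.23%. *Hey1* and *Notch3* were found together in 5 of the 38 zeugopod cells with *Notch3*, 13.2%, against 3 of the 85 without, 3.53%, and in both zeugopod groups, at 12.5% against 2.94% in NXT0142 and 14.3% against 3.92% in NXT0143. The zeugopod cells with *Notch3* had more genes detected, with a median of 4276 against 3923, and after thinning the shares were close, at 8.33% against 7.23%. *Hes1* was found in 19 of 26 autopod cells with *Rbpj*, 73.1%, and 44 of 50 without, 88%, which was 80.6% against 87.8% after thinning. In the zeugopod it was found in 55.3% with *Rbpj* and 50.6% without. The zeugopod runs differed in direction, at 42.1% against 48.7% in NXT0142 and 68.4% against 52.2% in NXT0143. All 6 autopod cells with *Notch1* had *Hes1*, beside 57 of the 70 without, 81.4%, while in the zeugopod the shares were 8 of 18 with *Notch1*, 44.4%, and 53.3% without. Here too the zeugopod runs went opposite ways, at 66.7% against 42.9% in NXT0142 and 22.2% against 62.5% in NXT0143.

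The members were next described in cells that carry markers of other programmes. The genes were taken by name and not by these markers, but members and marker lists were chosen with earlier results of these data known. *Sox9*, the master regulator of chondrocytes, was itself more often detected in autopod cells, at 94.7% against 64.2%, with a difference of 3.14 on the log2 scale. In the zeugopod *Hes1* was found in 51 of 79 cells with *Sox9*, 64.6%, and in 13 of 44 cells without, 29.5%, a difference of 1.66 in mean level that was 1.31 in NXT0142 and 1.97 in NXT0143. In the autopod, where 4 cells lacked *Sox9*, 60 of 72 cells with it and 3 of 4 without had *Hes1*. In cells with *Sox9* detected alone, a restriction chosen after the data were seen, the difference between tissues was 2.31 for *Hes1* and 2.22 for *Jag1*. *Sox9* levels were not matched between the tissues in these cells, and the part of *Sox9* in the differences was not tested.

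The stricter chondrogenic profile, at least 3 of *Sox9*, *Col2a1*, *Acan*, *Col9a1* and *Matn1*, was met by 35 autopod and 38 zeugopod cells. *Hes1* was higher in these cells by 1.20 in the autopod (88.6% against 78.05% of cells) and by 0.64 in the zeugopod (57.9% against 49.4%). By run the differences were 1.46 and 0.31 in the autopod but -0.31 and 1.56 in the zeugopod, and so had no common direction. *Jag1* was found in 60% of chondrogenic and 68.3% of other autopod cells, and in 26.3% and 35.3% in the zeugopod, and its difference changed sign between runs in both tissues, at -1.62 and 2.60 in the autopod and 0.44 and -1.63 in the zeugopod. *Notch3* was found in 20.0% of chondrogenic and 39.02% of other autopod cells, at 11.1% against 43.75% in NXT0072 and 4 of 8 against 2 of 9 cells in NXT0143, and in 31.6% and 30.6% in the zeugopod.

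In the 17 autopod cells with at least 2 of the interdigit markers *Aldh1a2*, *Msx2* and *Bmp7*, *Jag1* was found in 14 cells, 82.4%, against 59.3% of the other 59, *Hey1* in 7 cells, 41.2%, against 15.3%, and *Notch2* in all 17. These cells had more genes detected, with a median of 4504 against 3414, and in NXT0143 the contrast was not seen for *Hey1*, at 16.7% against 18.2%, and was smaller for *Jag1*, at 66.7% against 54.5%. In the 18 autopod cells with cell cycle markers *Jag1* was found in 77.8% against 60.3% and *Hes1* in 66.7% against 87.9%, and all but 2 of these cells came from NXT0072. In the 23 zeugopod cells with these markers *Hes1* went the other way, at 69.6% against 48%, and at 64.3% against 40.9% in NXT0142 and 77.8% against 53.6% in NXT0143. These cells too were rich in genes, with a median of 5053 against 3900.5 in the zeugopod, and the part of depth was not tested. Among zeugopod cells with *Shox2* the shares of *Jag1* and *Hes1* were 32.9% and 49.3%, against 32% and 56% without.

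The number of *Hoxd* genes on in a cell, a central measure of the study, was set against the members. A *Hoxd* gene counted as on when its normalized value was 5 or more and reached 5% of that of the top *Hoxd* gene in the same cell. In the autopod, *Jag1* was found in 9 of 23 cells with 1 gene on, 39.1% (19.7 to 61.5), in 20 of 27 cells with 2, 74.1% (53.7 to 88.9), and in 18 of 23 cells with 3 or more, 78.3% (56.3 to 92.5), and its mean level on the log2 scale was 2.32, 5.42 and 6.12. The median number of genes detected was higher along the same classes, at 2800, 3540 and 4365. In cells thinned to 500000 reads the shares were 57.1%, 77.8% and 80.95%. The pattern was that of NXT0072, at 35%, 72.7% and 93.8%, and in NXT0143 the counts were 2 of 3, 4 of 5 and 3 of 7. *Hes1* had no such order, at 82.6%, 92.6% and 73.9%. In zeugopod cells *Jag1* was found in 33.3%, 30.95% and 41.4% of the same classes and *Hes1* in 61.9%, 50% and 51.7%. With no *Hoxd* gene on, *Jag1* was found in 2 of 3 autopod cells and in 1 of 10 zeugopod cells, and *Hes1* in 2 of 3 and 2 of 10.

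**Figure D5:**
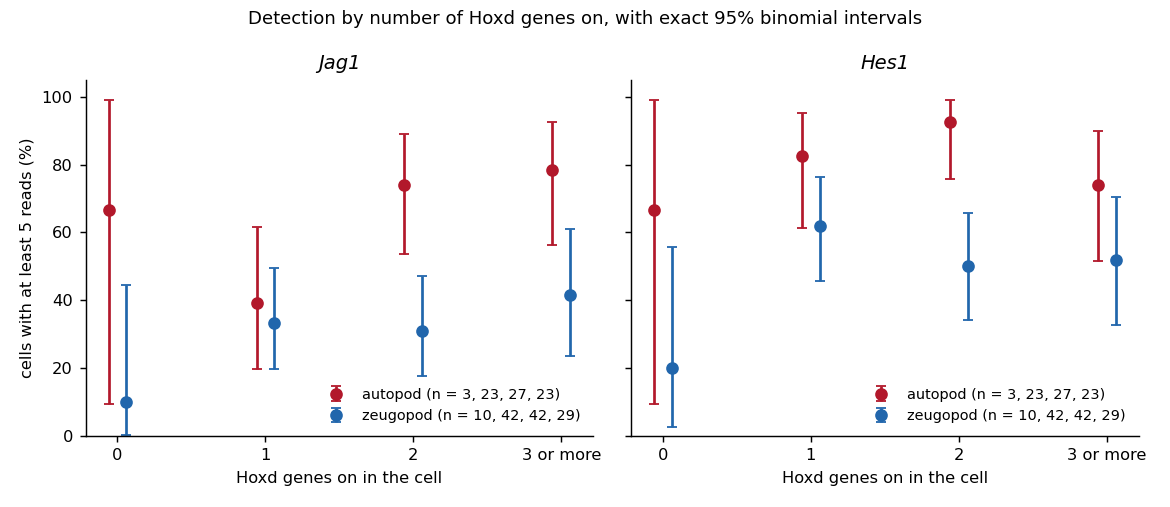
Share of retained cells (%) with at least 5 reads of *Jag1* and of *Hes1* by the number of *Hoxd* genes on (0, 1, 2, or 3 and more), for autopod and zeugopod cells, with exact binomial 95% intervals over cells. From 1 to 3 or more genes on, *Jag1* goes from 39.1% to 78.3% in the autopod and lies between 30.95% and 41.4% in the zeugopod. The class with 0 on, of 3 autopod and 10 zeugopod cells, has wide intervals, at 66.7% and 10% for *Jag1* and 66.7% and 20% for *Hes1*.

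*Hoxd13* itself was on in 61 of 76 autopod cells, where *Jag1* was found in 67.2%, against 8 of the 15 other cells, 53.3%. The runs went opposite ways, with 69.8% against 33.3% in NXT0072 and 50% against 66.7% in NXT0143.

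Of 60 further genes of the pathway, 59 were in the count table and 42 were tested. *Ctbp1*, a co-repressor that Hairy-related and RBPJ complexes can recruit, was called higher in the autopod, and *Dlk1*, a Delta-like protein without the canonical receptor-binding domain, was called lower, each with the same direction in both run comparisons. *Ctbp1* was detected in 44 autopod and 43 zeugopod cells and differed by 1.47, by 1.01 within NXT0143 and by 1.39 between the other runs. *Dlk1* was detected in 0 autopod and 69 zeugopod cells, 56.1%, and its difference was -2.43, with -2.40 and -2.46 in the run comparisons, beside an upper limit of 3.95% for its share of autopod cells, and since nearly all autopod cells lay at the floor the size of the difference depends on the pseudocount. The co-activator genes *Crebbp* and *Snw1*, named because they were the other calls and not by the rule for naming genes, were lower by 1.97 and by 1.51 over all cells but stood at 0.17 and 0.11 within NXT0143. The calls came to 2.38% of the 42 genes higher and 7.14% lower, near the 3.45% and 7.62% of all genes, with a median of -0.07.

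By class, 0 of 8 tested proteases and gamma-secretase genes, 0 of 4 glycosyltransferase and maturation genes and 0 of 3 genes of ligand ubiquitination and endocytosis were called. The same held for 0 of 6 receptor antagonists and 0 of 3 other targets. Called lower were 1 of 1 ligand and 2 of 7 co-activators, and called higher was 1 of 10 co-repressors, beside 7.62% and 3.45% of all tested genes. The co-activator calls were not held within NXT0143. The other ligands were rare, with *Jag2* in 3 autopod and 6 zeugopod cells, *Dll3* in 0 and 4, and *Dll4* in none, and *Notch4* was found in 0 and 4 cells. *Lfng*, a glycosyltransferase that changes which ligands a receptor answers to, was found in no cell and *Mfng* in 1. *Mib1*, the ubiquitin ligase that makes ligands active, was found in 50 autopod and 83 zeugopod cells. Of the other targets, *Hes5* was found in no cell, *Hes7* in 2 cells of each tissue, and *Hey2* in 19 autopod and 16 zeugopod cells, with a difference of 0.38.

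The genes whose values were most like those of a member over all retained cells were found by the partial rank correlation given the number of genes detected, averaged over the 4 groups of tissue and run with each group weighted by its number of cells, among 4898 genes. The highest values were 0.33 for *Hes1* with *Sox9*, at 0.46 and 0.08 in the autopod groups and 0.20 and 0.39 in the zeugopod groups, and 0.37 for *Notch3* with *Cnot8*. *Hes1* was next most like *Lgr4* at 0.29 and *Rab1* at 0.27. *Jag1* was most like *Casd1* at 0.27, *Atp1b3* at 0.26 and *Snrpf* at 0.22, *Notch2* most like *Dpysl2* at 0.28, *Herc1* at 0.27 and *Rpl37a* at 0.26, and *Rbpj* most like *Ercc1* at 0.25, *Ash1l* at 0.24 and *Ddb1* at 0.23. After *Cnot8*, *Notch3* was most like *Coro1b* at 0.28 and *Aprt* at 0.24. Some of these values were not shared by all groups. *Snrpf* stood at -0.20 with *Jag1* in autopod NXT0143 and *Lgr4* at -0.06 with *Hes1* in zeugopod NXT0142. The other group values were positive, but as low as 0.02 for *Dpysl2* with *Notch2* in autopod NXT0072 and 0.03 for *Atp1b3* with *Jag1* in zeugopod NXT0143. The genes named are the highest of 4898, and the value that the highest would reach without association was not computed. Among *Jag1*, *Notch2*, *Notch3*, *Rbpj* and *Hes1*, no member was among the 3 genes most like another. *Dll1*, *Notch1*, *Hey1* and *Heyl* were detected in too few cells to be compared or to be candidates. Pairs with any of them could not appear, and nothing follows for those pairs.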

How the data were processed

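Single cells were captured on a Fluidigm C1, and cDNA and libraries were made with SMARTer kit v2 and Nextera XT. Reads were mapped by the authors with Bowtie2 in local mode, keeping unique hits, to mm10, and the deposited counts are reads per Ensembl gene of GRCm38. The deposited normalized signal came from the authors' spike-in size factors, centred within each run, which can remove differences of RNA content between runs, and from a correction for gene length. Checked against the counts, each value equalled the rounded scaled count plus 1 divided by a length in kilobases for 99.96% of values at a tolerance of 1e-06. Cells were grouped by the tissue and run in the labels. The members and gene lists were chosen with earlier results of these data known. In the labels no cell has an embryo of its own, so no test was made, although the study's own comparison took cells as replicates.

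Means of log2(normalized value + 1), detection at 5 reads or more, exact binomial 95% intervals, rank correlations and thinning to 500000 reads (8 shallower cells left out) were computed in Python 3.11.15 with numpy 2.4.6, pandas 2.3.3 and scipy 1.17.1, and figures were drawn with matplotlib 3.10.9. Genes entered the comparison when detected in 10% or more of the cells of a tissue. Genes of the wider list were to be named, up to 6 a direction, with a difference of at least 1 that kept its sign in each run comparison, and likeness was computed for members detected in 20% or more of cells among genes detected in 25% or more of the cells of a tissue. The steps were tested on simulated data. No doublet caller was run. Spike-in rows were not used, because their columns do not follow the order of the cell names. Alternatives chosen after seeing the data were cells with *Sox9* only, the highest cell of each tissue left out, the *Hoxd* classes by run and thinned, and correlations over cells with both genes. Gene positions came from GENCODE on GRCm38.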

Additional observations from a re-analysis of the deposited data

Results flagged for a closer look

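The 26 captured cells outside the normalized table enter no comparison above. Among them *Notch2* had at least 5 reads in 5 cells, 19.2% (6.55 to 39.4), and *Hes1* in 4 cells, 15.4% (4.36 to 34.9). Both shares were below the shares in retained cells. *Jag1* and *Notch3* were found in 1 of these cells each, and the other members in 0.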

How the results depend on the processing

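No paired analysis was possible because the cell numbers only name cells and the results come from no test. Of 266 values under alternatives, 198 were scored as the same as the value reported, 67 as moved and 1 as reversed. A difference was scored against the standard deviation of the run comparisons, which are themselves among the alternatives. Shares were scored against their binomial interval, correlations against the spread of the runs and counts by a fixed ratio. Members whose runs disagreed thus had a wide allowance, with *Notch2* scored as the same 11 times and *Jag1* 2 times. The scores are therefore no measure of how stable a result is. Of the members called, *Notch2* changed sign, to 0.049 within NXT0143; the cause was not tested. Of those below the threshold, *Notch1* changed sign from -0.14 to 1.02 within NXT0143 and 0.26 as a mean over runs, and *Notch3* from 0.21 to -0.21 between NXT0072 and NXT0142.

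The difference of *Jag1*, 2.37 as reported, was 3.07 and 1.45 with pseudocounts of 0.1 and 10, 2.65 on CPM, 2.27 within NXT0143, 2.23 between NXT0072 and NXT0142, 2.25 as a mean over runs, 2.46 with cells without reads set to 0, 2.81 after thinning, 2.50 without chondrogenic cells and 2.22 in cells with *Sox9*. That of *Hes1* was 3.15 and 1.84 with those pseudocounts, 2.38 without chondrogenic cells and 2.31 in cells with *Sox9*. *Jag1* and *Hes1* stayed called in all of these. The number of members called lower was 0 with a pseudocount of 10, within NXT0143, as a mean over runs and without chondrogenic cells, where *Notch2* was no longer called.

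With all captured cells the autopod shares were 52.1% for *Jag1*, 77.1% for *Notch2* and 68.8% for *Hes1*. The *Hes1* share was 90.8% at 1 read and 69.7% at 20 reads in the autopod and 40.7% at 20 reads in the zeugopod, and ligand, receptor and target were together in 67.1% of autopod cells at 1 read. The correlation of *Jag1* with *Hes1* was 0.058 on CPM, -0.0057 given genes detected, 0.018 in NXT0072, 0.017 in NXT0143 and -0.078 in cells with both genes for the autopod, and -0.040 on CPM and 0.29 in cells with both genes for the zeugopod. Of the 42 tested genes of the wider list, 7 were called higher within NXT0143, 2 between the other runs and 7 at a threshold of 0.5. Over all tested genes the shares called higher were 12.9%, 3.98% and 13.1% in turn. Of the wider list, 7 and 10 genes were called lower between the other runs and at 0.5, beside 15% and 21.1% of all tested genes. *Jag1* in autopod cells with 1 *Hoxd* gene on was found in 66.7% in NXT0143, and with 3 or more in 93.8% in NXT0072 and 42.9% in NXT0143.

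Depth limits what an absent transcript means, since a cell with under 5 reads of a gene may hold it, and values with 17 autopod cells in NXT0143 are the least precise.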
